A study of Mus musculus with 4 samples.

Results

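The 10 genes described here encode the MHC class II antigen presentation machinery of the mouse: the classical chains H2-Aa, H2-Ab1 and H2-Eb1, the invariant chain Cd74, the peptide-exchange subunits H2-DMa, H2-DMb1 and H2-DMb2, the modulators H2-Oa and H2-Ob, and the coactivator Ciita. They were chosen by name as genes of this pathway, with earlier results of these data known, and all 10 were found among the 41079 genes of the expression table. RNA was sequenced from whole lung of mice with and without OVA-induced allergic airway inflammation, to ask how loss of Rab44, a large Rab GTPase, alters the response. There were 4 libraries, 1 per condition. Their values are listed throughout in a fixed order: normal WT, then normal Rab44-KO, then the OVA-induced WT and last the OVA-induced Rab44-KO lung. Rab44-KO mice were made with CRISPR/Cas9 on a C57BL/6 background, and all mice were female littermates aged 8 to 14 weeks. OVA-induced mice received 100 µg of ovalbumin (OVA) in alum intraperitoneally on days 0, 7 and 14, then 100 µg of OVA in 50 µL intranasally from day 17 to 20, and lungs were taken on day 21. The sample records list the normal mice as untreated, whereas the general protocol also names a challenge with PBS, so which of these the normal mice received is not settled here. How many mice contributed to a library is not stated.

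MHC class II molecules are pairs of an alpha and a beta chain that carry peptides from engulfed protein to the cell surface, where CD4 T cells read them. The invariant chain, CD74, fills the groove of a new molecule until cathepsins trim it to a short remnant, H2-DM exchanges that remnant for peptide, and H2-O restrains H2-DM, mainly in B cells. CIITA switches on most of the set by joining the RFX, NF-Y and CREB factors on the X and Y boxes of class II promoters. In lung, class II is carried mainly by dendritic cells, macrophages and B cells, and at a lower level by alveolar type 2 cells. C57BL/6 mice have the H2b haplotype, which makes I-A from H2-Aa and H2-Ab1 but no I-E on the surface, because H2-Ea is not expressed.

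In the GRCm38 build (GENCODE M21), 8 of the 10 genes lie within 224 kb of chromosome 17, from H2-Oa (chr17:34092340-34095234) through H2-DMa (chr17:34119541-34139101), H2-DMb2 (chr17:34143307-34151555), H2-DMb1 (chr17:34153072-34160230), H2-Ob (chr17:34238903-34254414), H2-Ab1 (chr17:34257689-34269419) and H2-Aa (chr17:34282744-34287823) to H2-Eb1 (chr17:34305867-34316674). H2-Aa is on the minus strand and the other 7 are on the plus strand. Ciita (chr16:10480059-10528418) and Cd74 lie on other chromosomes, and the targeted gene Rab44 (chr17:29114145-29148980) is on the same chromosome as the cluster.

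Promoter sequences are shown because CIITA acts through these regions. RefSeq promoters of GRCm38.p6, each running from 250 bases before to 50 bases after a gene start, were given for 7 of the 10 genes. H2-Ab1, Cd74 and Ciita had no entry. The X box core ACNGATG and the Y box core ATTGG were searched on both strands. They occurred in 9.85% and 37.4% of 32851 promoters. The X core followed on the same strand by the Y core with 10 to 40 bases between them occurred in 74 promoters, or 0.225%. Among the 7 genes, 3 held this arrangement: H2-Eb1 with 22 bases between the cores, and H2-DMb1 and H2-DMb2 with 23 bases each. The class II gene H2-Eb2 also held it, with 22 bases. H2-Aa, H2-Ob and H2-Oa had a Y core starting 48, 57 and 43 bases before the start without this arrangement. H2-DMa had a Y core starting 198 bases before a listed start and no X core, and its stretches are not shown. Only exact letters were counted, so an X or Y box with other letters would be missed in any of these genes. The stretches below run 5′ to 3′ on the strand of the gene, from 150 to 21 bases before its start, and capitals mark letters that match a core on either strand. These starts are those of RefSeq. They equal those of GENCODE for H2-Eb1 and H2-Aa and lie inside the GENCODE gene for H2-DMb2, H2-Oa and H2-Ob, and 19 bases of the H2-Oa stretch and 4 of that of H2-Eb1 lie in GENCODE exons. That of H2-DMb1 is left out because 99 of its 130 bases lie in an exon annotated by GENCODE. A match is a description of letters, not of binding.
H2-Eb1 (chr17:34305717-34305846, plus strand): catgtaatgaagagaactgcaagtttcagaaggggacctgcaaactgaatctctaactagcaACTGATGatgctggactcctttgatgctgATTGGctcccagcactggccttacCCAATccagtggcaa
H2-DMb2 (chr17:34145099-34145228, plus strand): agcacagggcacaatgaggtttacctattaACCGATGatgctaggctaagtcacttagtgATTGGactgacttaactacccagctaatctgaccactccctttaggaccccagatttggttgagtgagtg
H2-Aa (chr17:34287844-34287973, minus strand): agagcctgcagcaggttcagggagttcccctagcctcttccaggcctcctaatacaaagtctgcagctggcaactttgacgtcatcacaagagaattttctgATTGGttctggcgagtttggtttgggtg
H2-Ob (chr17:34238755-34238884, plus strand): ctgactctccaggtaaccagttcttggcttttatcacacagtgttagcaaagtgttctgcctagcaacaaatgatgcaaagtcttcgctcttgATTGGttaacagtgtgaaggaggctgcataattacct
H2-Oa (chr17:34092229-34092358, plus strand): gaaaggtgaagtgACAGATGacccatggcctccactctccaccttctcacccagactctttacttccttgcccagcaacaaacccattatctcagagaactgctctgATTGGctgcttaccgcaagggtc

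H2-DMb1 and H2-DMb2 encode near-identical beta chains, so their reads could be confused. Over the 783 coding bases of a GENCODE transcript of each, 751 bases (95.9%) were identical, and the longest identical run was 221 bases. Of all 150-base windows, the read length, 72 were shared between both genes, which is 4.71% of the windows of H2-DMb1 and 4.14% of those of H2-DMb2. The differences are densest between coding bases 206 and 295, where 19 of 90 differ, as the stretches below show with the differing bases in capitals.
H2-DMb1: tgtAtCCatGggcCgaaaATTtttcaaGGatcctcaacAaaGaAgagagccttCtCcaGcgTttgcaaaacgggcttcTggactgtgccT
H2-DMb2: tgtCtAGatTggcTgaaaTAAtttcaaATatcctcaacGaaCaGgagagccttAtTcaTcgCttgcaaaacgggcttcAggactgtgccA
H2-DMa shares 4.85% of its windows with Brd2 on the opposite strand, and H2-Oa shares 5.47% with the antisense gene BC051537. Whether the counting used strand is not stated, so reads of these overlapping pairs may not be separated. Brd2 had 5052, 4729, 4798 and 4559 counts in the 4 libraries, and BC051537 had 51, 51, 113 and 32. Exons of Ciita also overlap Dexi on the opposite strand, which had 306, 276, 348 and 292 counts. Those of Cd74 overlap Mir5107 on the same strand, which had 31, 24, 89 and 41 counts. Ciita and Cd74 shared no 150-base window with another gene.

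The libraries held 18112901 to 19910236 counts. Rab44 had 251 counts in normal WT and 810 in OVA-induced WT lungs, against 1 and 0 in the Rab44-KO lungs, as the genotype labels state. The alveolar type 2 cell marker Sftpc, with 181126 to 361981 counts, marked all 4 libraries as lung. H2-Ea, which the strain does not express, had 0, 0, 2 and 1 counts. With 1 library per condition, no comparison of a pair of conditions had a test, so every interval below covers the 95% counting error alone, and the difference between individual mice is not known. Levels are given as CPM, counts scaled to the size of the library with TMM factors, for a gene across libraries, and as TPM, which divides by length, for different genes within a library.

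The class II genes formed a steep order of levels within each library. By TPM, Cd74 was highest of the 10, at 1597, 1712, 3444 and 1469, which placed it 40th, 39th, 19th and 44th of all genes. H2-Aa and H2-Ab1 came next, at 717 to 883 TPM in 3 libraries and at 1686 and 1691 in OVA-induced WT lung. H2-Eb1 followed at 411 to 918 TPM and H2-DMb1 at 110 to 195 TPM. H2-DMb2, at 24.9 to 74.7 TPM, and H2-Ob, at 23.5 to 45.7 TPM, did not differ beyond counting error in either normal lung, whereas H2-DMb2 was the higher in both OVA-induced lungs, by 1.63-fold in WT and 1.37-fold in Rab44-KO. H2-Oa (10.5 to 23.4 TPM) and Ciita (10.2 to 13.9 TPM) were lowest and differed beyond counting error from each other only in OVA-induced WT lung, where H2-Oa was 1.68-fold higher. H2-DMa stood at 15.7 to 26.3 TPM. This order rests on the lengths implied by counts over TPM, which differed from GENCODE exon lengths by a ratio of 2.43 for H2-DMa, 0.30 for H2-Aa, 0.48 for H2-Ab1 and 0.58 for H2-Ob. Rescaled to exon lengths, Cd74 remained highest in every library, but H2-Eb1 came next, before H2-Ab1 and H2-Aa, H2-DMa rose above H2-Ob, and H2-DMb2 (28.8) lay above H2-Ob (15.0) in normal WT lung too. The order below Cd74 is therefore uncertain. Together the 10 genes took 0.221%, 0.231%, 0.519% and 0.198% of all counts. H2-Aa, H2-Ab1, H2-Eb1 and Cd74 supplied 88.1% to 92.0% of these.

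OVA-induced WT lung stood above the other 3 libraries for every one of the 10 genes, with counting intervals that did not overlap. The classical chains and Cd74 showed this most clearly. H2-Aa, the alpha chain of I-A, was at 376 CPM in the normal WT lung and 411 in the normal Rab44-KO lung, and at 903 in the WT and 340 in the Rab44-KO lung after OVA. Its partner H2-Ab1 was at 368, 370, 958 and 324 CPM in the same order. H2-Eb1, the beta chain of I-E, was at 295, 296, 727 and 259 CPM. For these chains the normal lungs lay close to each other, and OVA-induced Rab44-KO lung was the lowest of the 4. Cd74, the chaperone of class II on chromosome 18, was at 951, 1001, 2314 and 787 CPM, with the same lowest and highest library. For Cd74 and H2-Aa, normal Rab44-KO lay above normal WT by more than counting error.

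The H2-DM and H2-O genes were less abundant and less uniform. H2-DMa, the only alpha chain of H2-DM, was at 54.6, 53.0, 102 and 53.1 CPM. H2-DMb1 was at 65.0, 58.4, 119 and 57.2 CPM. OVA-induced Rab44-KO lung was thus at the level of normal Rab44-KO lung for both of these. H2-DMb2 departed from that pattern, at 20.7, 18.6, 64.2 and 32.6 CPM, with OVA-induced Rab44-KO lung above both normal lungs. H2-Ob, the beta chain of H2-O, was at 33.1, 29.4, 65.8 and 39.8 CPM and also had its second-highest level in OVA-induced Rab44-KO lung. Its partner H2-Oa, at 5.68, 5.32, 13.6 and 5.03 CPM, did not. Ciita, the coactivator of class II transcription, was at 41.7, 46.7, 64.7 and 44.0 CPM and had the narrowest range of the 10.

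**Figure D1:**
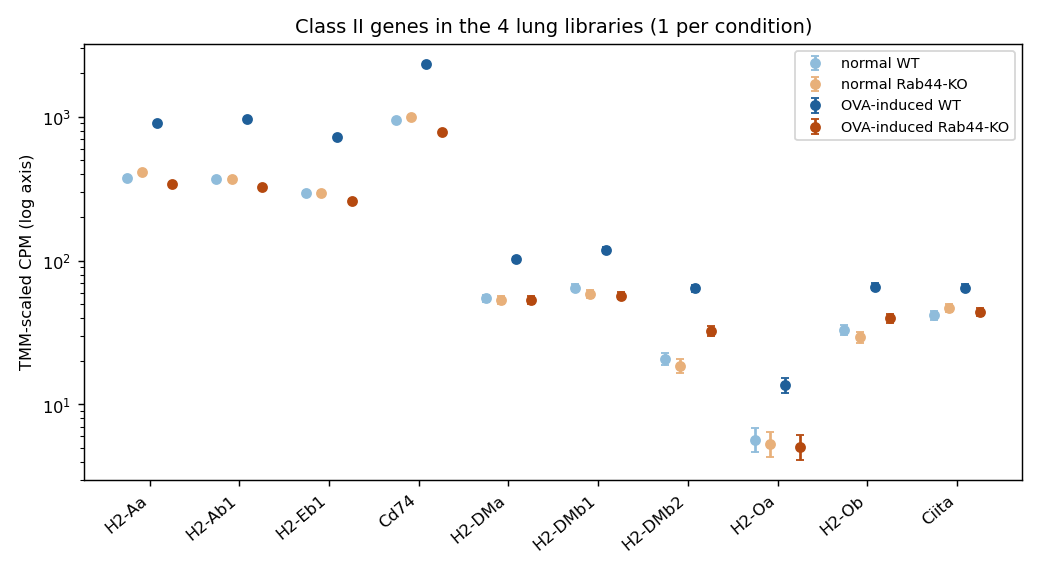
Level of each class II gene in the 4 lung libraries, as TMM-scaled CPM on a log axis; each point is 1 library and bars are 95% Poisson intervals, hidden where smaller than the point. The dark blue points, OVA-induced WT, lie above the other 3 for every gene, from 13.6 CPM for H2-Oa to 2314 CPM for Cd74.

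In normal lungs, Rab44-KO and WT differed little in class II genes. None of the 10 was over 2-fold higher or lower, or over 1.5-fold, where 2.77% of 18718 genes were over 2-fold higher, 2% over 2-fold lower, and 6.83% and 4.61% were past 1.5-fold upward and downward. The log2FC, the log2 of the Rab44-KO to WT ratio, ran from -0.17 for H2-Ob to 0.16 for Ciita, with a median of -0.02. The counting interval lay above 0 for H2-Aa (0.13), Cd74 (0.07) and Ciita (0.16), and below 0 for H2-DMb1 (-0.15) and H2-Ob (-0.17). For the other 5 genes it held 0, and the widest, that of H2-Oa, ran from -0.50 to 0.31. In RNA of whole lung, fewer cells of a type and less RNA per cell cannot be told apart, here and below.

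In OVA-induced lungs, every class II gene was lower in Rab44-KO than in WT. H2-Aa, H2-Ab1, H2-Eb1, Cd74, H2-Oa and H2-DMb1, 6 of the 10, were over 2-fold lower, where 7.34% of 19259 genes were over 2-fold lower. All but Ciita, 9 of 10, were over 1.5-fold lower, where 17.6% of all genes were. The median log2FC was -1.23, against -0.02 over all genes. H2-Ab1 was 2.96-fold lower (log2FC -1.57, -1.61 to -1.52), Cd74 2.94-fold lower (-1.56, -1.58 to -1.53), H2-Eb1 2.80-fold lower (-1.49, -1.53 to -1.44) and H2-Aa 2.66-fold lower (-1.41, -1.45 to -1.37). These 4 lay between the 3.5th and 4.2nd percentile of all genes. H2-Oa was 2.70-fold lower, on 263 and 98 counts (-1.43, -1.78 to -1.09). The H2-DM subunits formed a narrow group, at 2.07-fold lower for H2-DMb1 (-1.05, -1.16 to -0.95), 1.97-fold for H2-DMb2 (-0.98, -1.12 to -0.84) and 1.92-fold for H2-DMa (-0.94, -1.05 to -0.83). H2-Ob was 1.65-fold lower (-0.72, -0.86 to -0.60) and Ciita 1.47-fold lower (-0.56, -0.69 to -0.43), the smallest differences of the 10 before any adjustment for gene length.

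**Figure D2:**
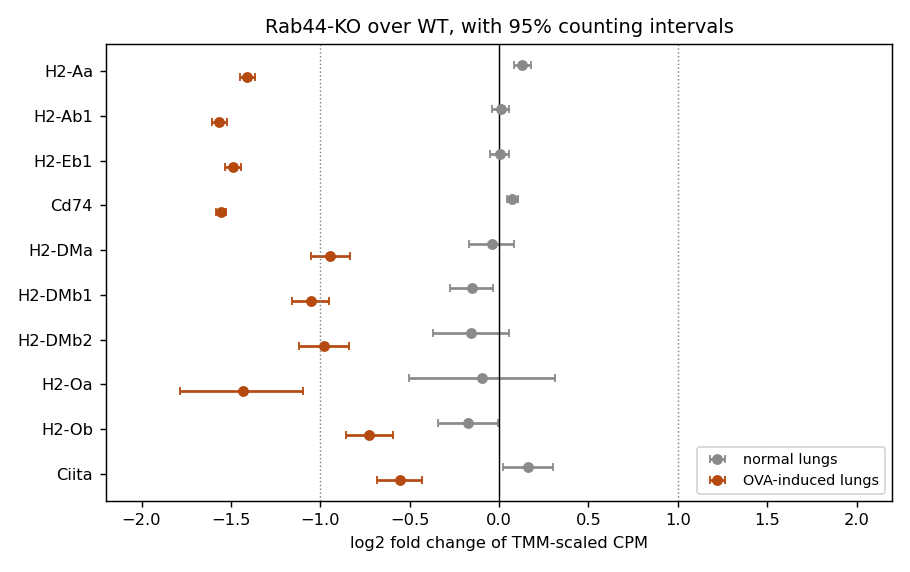
Log2 fold change of Rab44-KO over WT for each class II gene, in normal lungs (grey) and OVA-induced lungs (red-brown); bars are 95% counting intervals and dotted lines mark 2-fold. Normal lungs lie between -0.17 and 0.16, and OVA-induced lungs between -1.57 and -0.56.

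The genotype difference was thus larger in OVA-induced than in normal lungs for each of the 10 genes. The difference between both log2FC values ran from -0.55 (-0.76 to -0.34) for H2-Ob to -1.63 (-1.67 to -1.59) for Cd74, and no counting interval reached 0. It passed 2-fold for H2-Aa, H2-Ab1, H2-Eb1, Cd74 and H2-Oa, where 9.14% of 19744 genes passed 2-fold in that direction.

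A trend with gene length and a shift of housekeeping genes went along with this comparison. Over all genes, short genes tended to be lower in Rab44-KO than in WT after OVA and long genes higher. The running median of neighbouring genes, at the length implied by counts over TPM, was -0.44 to -0.47 for H2-Aa, H2-Ab1, H2-Oa and H2-DMb1, -0.33 for Cd74, -0.34 for H2-Eb1, and 0.30 and 0.33 for H2-DMa and Ciita. In normal lungs, the same running median lay between -0.08 and 0.05 at these lengths. With the trend subtracted, all 10 genes were still lower in Rab44-KO, from -0.55 for H2-Ob to -1.25 for H2-DMa, and the median was -0.97. H2-DMa, Cd74 (-1.23), H2-Eb1 (-1.14) and H2-Ab1 (-1.12), 4 genes in place of 6, were over 2-fold lower, where 5.72% of all genes were. Ciita was then at -0.89, past 1.5-fold, and H2-Ob, at -0.55, was the gene that was not. The value of H2-DMa rests on its doubtful length. With GENCODE exon lengths in place of the implied ones, it was -0.74, Ciita was -0.77, and H2-Aa was -1.27 in place of -0.94. All 10 genes were lower by this measure as well, from -0.56 for H2-DMb2 to -1.29 for H2-Ab1, with a median of -0.93, and H2-Aa, H2-Ab1, H2-Eb1, Cd74 and H2-Oa were over 2-fold lower, where 5.8% of 16740 genes were. The 5 housekeeping genes measured, Actb, Gapdh, Tbp, Ppia and Rplp0, were all lower in OVA-induced Rab44-KO lung as well, with a median log2FC of -0.64 and a range from -0.48 to -1.12, but Gapdh had 34 to 83 counts, few for a gene that every cell uses. The part of either trend in the class II difference was not tested beyond the subtraction.

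**Figure D3:**
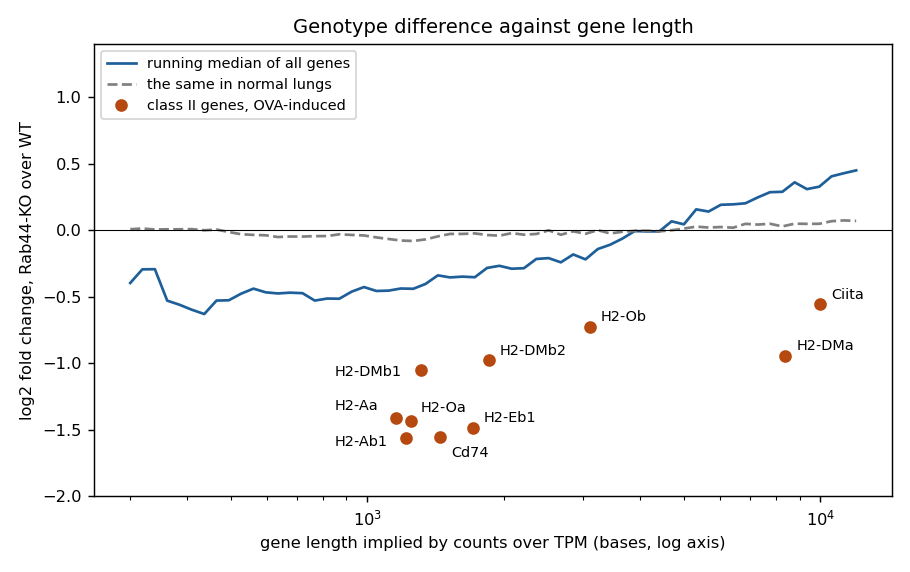
Log2 fold change of OVA-induced Rab44-KO over OVA-induced WT lung against gene length implied by counts over TPM (log axis); points are the class II genes, the solid line is the running median of all genes and the dashed line is the same in normal lungs. All 10 points lie below the solid line, by 0.55 for H2-Ob to 1.25 for H2-DMa, whose implied length is 2.43 times its exons and which lies 0.74 below the median of genes of its exon length.

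In WT, class II genes were higher in the OVA-induced than in the normal lung. Over 2-fold higher were 6 of 10, where 8.99% of 19023 genes were, and over 1.5-fold higher were all 10, where 15.4% of all genes were. H2-DMb2 had the largest fold, 3.10 (log2FC 1.63, 1.47 to 1.80), followed by H2-Ab1 at 2.61 (1.38, 1.34 to 1.42), H2-Eb1 at 2.46 (1.30, 1.26 to 1.34) and Cd74 at 2.43 (1.28, 1.26 to 1.31). H2-Aa was 2.40-fold and H2-Oa 2.39-fold higher. H2-Ob (1.99-fold), H2-DMa (1.87-fold), H2-DMb1 (1.83-fold) and Ciita (1.55-fold) were less so. The median was 1.26.

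In Rab44-KO, the OVA-induced lung did not show this. None of the 10 genes was over 2-fold higher, where 6.44% of 19073 genes were, and 1, H2-DMb2, was over 1.5-fold higher, where 12.9% of all genes were. None was over 2-fold lower, where 3.85% were, and the median log2FC was -0.08. H2-DMb2 was 1.75-fold higher (0.81, 0.62 to 1.005) and H2-Ob 1.36-fold higher (0.44, 0.28 to 0.60). Cd74 (-0.35, -0.38 to -0.32), H2-Aa (-0.27, -0.32 to -0.23), H2-Ab1 (-0.19, -0.24 to -0.14) and H2-Eb1 (-0.19, -0.25 to -0.14) were below the normal Rab44-KO lung by more than counting error. Genes of these lengths had a running median of -0.12 to -0.16 in this comparison, and with it subtracted the 4 values became -0.18, -0.14, -0.07 and -0.05. For H2-DMa (0.00), H2-DMb1 (-0.03), H2-Oa (-0.08) and Ciita (-0.09) the counting interval held 0. The WT and Rab44-KO responses share no library with each other, but each shares 1 library with each genotype comparison above.

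**Figure D4:**
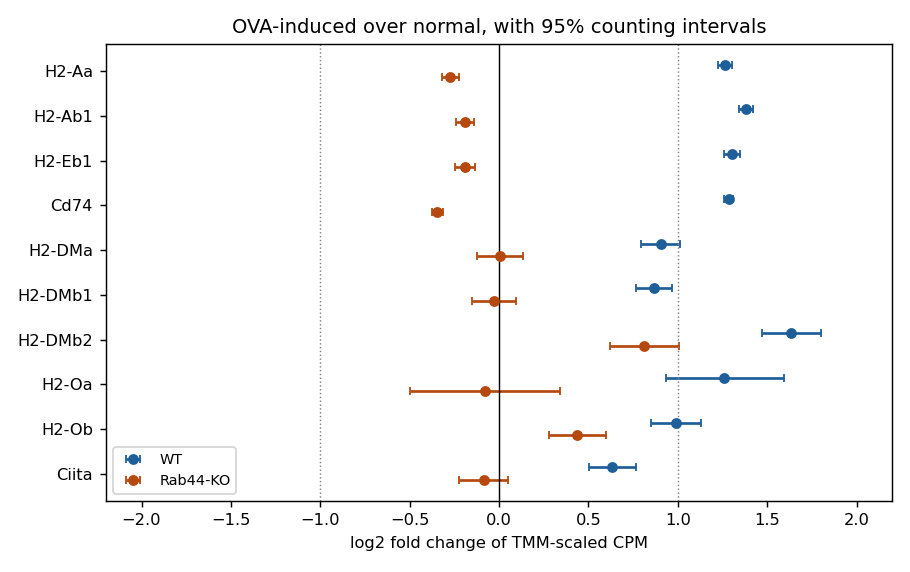
Log2 fold change of the OVA-induced over the normal lung for each class II gene, in WT (blue) and Rab44-KO (red-brown); bars are 95% counting intervals and dotted lines mark 2-fold. In WT the values lie between 0.63 for Ciita and 1.63 for H2-DMb2, and in Rab44-KO H2-DMb2 (0.81) and H2-Ob (0.44) stand apart from the other 8, which lie between -0.35 and 0.00.

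Ratios between class II genes within a library do not depend on how libraries are scaled, and they separated genes that kept step from genes that did not. They are ratios of counts, compared between libraries only, since counts are not per length. H2-Eb1 to H2-Ab1 was 0.804, 0.801, 0.759 and 0.801 by counts. Cd74 to the sum of H2-Aa and H2-Ab1 was 1.28, 1.28, 1.24 and 1.19. H2-Aa to H2-Ab1, the chains of I-A, was 1.02, 1.11, 0.943 and 1.05, and its log2 differences, from -0.12 to 0.16, passed counting error in all 4 comparisons. These ratios thus varied little while the genes themselves differed over 2-fold.

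H2-DMb2 to H2-DMb1 differed with OVA induction, while its genotype differences were within counting error. It was 0.318 in both normal lungs and, after OVA, 0.541 in WT and 0.570 in Rab44-KO lung. Its log2 difference was 0.77 (0.58 to 0.96) for OVA-induced over normal in WT and 0.84 (0.62 to 1.07) in Rab44-KO, while between genotypes it was 0.00 (-0.24 to 0.24) in normal and 0.07 (-0.10 to 0.25) in OVA-induced lungs. Both genes are short, 1315 and 1853 bases by the implied length.

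The ratio of Ciita, the coactivator, to its target Cd74 was 0.0439, 0.0467, 0.0280 and 0.0559 by counts, lowest in the OVA-induced WT and highest in the OVA-induced Rab44-KO lung. Its log2 difference between the OVA-induced lungs was 0.999 (0.87 to 1.13). Ciita is a long gene and Cd74 a short one, and the running medians at their lengths, 0.33 and -0.33, differ in the same direction. H2-DMb1 to H2-Ab1, both short, was 0.177, 0.158, 0.124 and 0.177, so that it was lowest in OVA-induced WT lung. H2-Oa to H2-Ob was 0.171, 0.181, 0.206 and 0.126, with a log2 difference of -0.71 (-1.07 to -0.35) between the OVA-induced lungs. The running medians at their lengths, -0.44 and -0.18, differ in the same direction.

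Of the factors that act with Ciita on class II promoters, none was over 2-fold different in any comparison. The 7 genes Rfx5, Rfxank and Rfxap of the RFX complex, Nfya, Nfyb and Nfyc of NF-Y, and Creb1 had a median log2FC of 0.02 between the OVA-induced lungs, ranging from -0.55 for Rfxap to 0.52 for Creb1. Upstream, Ifng, the cytokine that induces Ciita in many cells, had 5, 3, 20 and 1 counts in the 4 libraries, too few for a firm level. Its signalling gene Irf1 had 2161 counts in WT and 1378 in Rab44-KO lung after OVA (-0.66), and Jak1 had 4958 and 5840 (0.23). Socs1, a feedback inhibitor of that pathway, was at 134 and 37 counts (-1.86). Of 8 genes of the pathway, 2 were over 2-fold lower, Ifng and Socs1. Among regulators of Ciita by lineage, Irf4 (-1.64) and Spi1 (-1.03) were over 2-fold lower in Rab44-KO than in WT after OVA, Irf8 was at -0.62, Pax5 at -0.19 and Prdm1 at 0.04. With the length trend subtracted, Irf4 was the only one of these 5 over 2-fold lower, and Spi1 was at -0.68.

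Of 8 lysosomal genes that prepare peptides and trim the invariant chain, 5 were over 2-fold lower in Rab44-KO than in WT after OVA, with a median log2FC of -1.03. Ctsd, an aspartic protease, was at 10124 counts in each normal lung, and after OVA at 40287 in WT and 11415 in Rab44-KO lung (-1.83). Ctss, which makes the last cut of the invariant chain, was at 2717, 2422, 9848 and 2894 counts (-1.78). Ifi30, the thiol reductase GILT, was at 1097, 985, 2647 and 1060 counts (-1.33). Lgmn (-1.03) and Ctsb (-1.02) just passed 2-fold, Ctsl was at -0.85 and Ctsh at -0.41, and Sppl2a, a protease that removes the Cd74 stub, was at 0.23. With the length trend subtracted, 3 of the 8 were over 2-fold lower.

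Genes that act on class II after it reaches the surface did not move as a set. Marchf1, a ubiquitin ligase that removes class II from the surface, had 355, 315, 666 and 631 counts and was higher in both OVA-induced lungs, by 0.90 in WT and 0.91 in Rab44-KO on the log2 scale. Cd83, which opposes Marchf1, had 251, 253, 722 and 195 counts and was lower in OVA-induced Rab44-KO lung (-1.90). Marchf8 was at -0.03. Of 6 costimulatory and inhibitory ligands, Cd86 (-1.11) and Pdcd1lg2 (-1.57, on 65 and 22 counts) were over 2-fold lower, and Pdcd1lg2 was so in normal lungs too (-1.75, on 25 and 7 counts). Of 8 receptors and coreceptors of CD4 T cells, which read class II, 4 were over 2-fold lower, namely Cd3d, Cd3e, Cd3g and Icos, and Cd4 itself was at -0.85 on 323 and 181 counts. With the length trend subtracted, 1 of these 8 was over 2-fold lower.

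Class I presentation genes, some of which lie among the class II genes, differed in the same direction and by less. Their median log2FC was -0.77 between the OVA-induced lungs, and 3 of 10 were over 2-fold lower, Psmb8, Psmb9 and Psmb10, subunits of the immunoproteasome. H2-K1 was at -0.92, H2-D1 at -0.77, B2m at -0.75 and Nlrc5, the class I counterpart of Ciita, at -0.15. With the length trend subtracted, none of the 10 was over 2-fold lower and the median was -0.50, beside -0.97 for class II. Within the 224 kb of the class II cluster, 5 other genes were in the table. Psmb9 (-1.10), Psmb8 (-1.05), Tap1 (-0.77) and Tap2 (-0.48) were lower in OVA-induced Rab44-KO lung, and Brd2 was at -0.08. H2-Eb2, just outside, had 99, 86, 295 and 156 counts and, like H2-DMb2, was higher than in normal lung in both OVA-induced genotypes (log2FC 1.56 in WT and 0.76 in Rab44-KO).

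Markers of the cells that carry class II differed between the OVA-induced lungs as well, and their part in the class II difference was not tested. Of 10 conventional dendritic cell markers, 8 were over 2-fold lower in Rab44-KO than in WT after OVA, namely Mgl2 (-2.38), Batf3 (-2.24), Xcr1 (-1.56), Itgax (-1.48), Cd209a (-1.17), Flt3 (-1.10), Itgae (-1.03) and Clec10a, while Zbtb46 (0.77) and Clec9a (0.56) were higher. With the length trend subtracted, 7 of the 10 were over 2-fold lower, and 6 with exon lengths. The summed level of this list was 188, 200, 371 and 205 CPM. Of this, Zbtb46 made up 38.49, 41.7, 34.85 and 59.35 CPM, and Clec9a 51.35, 53.15, 31.39 and 46.37 CPM. Of 4 mature dendritic cell markers, Fscn1, Ccl17 and Ccl22 were over 2-fold lower and Ccr7 was at -0.94, but 1 of the 4 was over 2-fold lower with the length trend subtracted. In normal lungs, all 4 were higher in Rab44-KO than in WT by more than counting error, from 0.27 for Ccr7 to 0.75 for Ccl17, with a median of 0.42. The list summed to 37.1, 49.3, 93.2 and 43.2 CPM. Of 6 interstitial macrophage and monocyte markers, 4 were over 2-fold lower, C1qa, C1qb, C1qc and Ly6c2, or 3 with the length trend subtracted. That list summed to 151, 147, 450 and 174 CPM. Of 6 alveolar macrophage markers, 3 were over 2-fold lower, Marco, Siglecf (-1.23) and Fabp4 (-1.05), and 1, Fabp1, was over 2-fold higher (1.89), as were 8.4% of all genes. With the length trend subtracted, 2 alveolar macrophage markers were over 2-fold lower, and 1 with exon lengths. Marco, at 145, 379, 912 and 76 counts, was lowest of that list (-3.59), which summed to 267, 251, 320 and 170 CPM, of which Car4 alone made up 205, 167, 192 and 118.

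B cell markers were higher after OVA in both genotypes. Of 7, only Cd79b was over 2-fold lower in Rab44-KO than in WT after OVA (-1.08), the median was -0.70 and Cr2 was at -0.03, but with the length trend subtracted none was and the median was -0.38. In normal lungs the median was -0.36, with Cd79a at -0.61. Their median log2FC for OVA-induced over normal lung was 1.02 in WT and 0.72 in Rab44-KO, where it was 2.78 for neutrophil markers, and the list summed to 197, 148, 392 and 238 CPM. Of the 10 class II genes, H2-Ob (0.44) and H2-DMb2 (0.81) were above normal in the OVA-induced Rab44-KO lung by more than counting error, and H2-Oa was at -0.08, beside a range over the B cell markers from 0.23 for Fcer2a to 1.06 for Cd79a. Ptprc, carried by all leukocytes, was at 129, 144, 265 and 260 CPM and differed by -0.03 between the OVA-induced genotypes, by -0.20 with the length trend subtracted and by 0.30 by TPM.

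The remaining lists bound the comparison. Plasma cell markers had a median log2FC of -2.04 between the OVA-induced lungs, with 3 of 4 over 2-fold lower, among them Mzb1 (-2.38) and Jchain (-1.74), which was over 2-fold higher in normal Rab44-KO lung (1.04). Their sum was 311, 298, 1153 and 486 CPM, of which Sdc1 alone made up 291, 265, 286 and 232. Eosinophil markers had a median of -1.95 over the 3 with enough counts, all over 2-fold lower, among them Ccr3 (-2.39) and Prg2 (-1.95), with a sum of 7.34, 10.2, 38.9 and 9.18 CPM, and Epx was listed at 0, 0, 1 and 0 counts. Neutrophil markers had a median of 0.48, with S100a8 at 0.41 and S100a9 at 0.48, and 1 of 3, Ly6g, was over 2-fold higher with an interval that held 0 (1.13, -0.06 to 2.46). The list had a sum of 45.5, 50.8, 283 and 389 CPM, and Ly6g, at 0, 3, 9 and 20 counts, was at 0 in normal WT lung. Of the plasmacytoid dendritic cell markers, Siglech (1.46) and Ccr9 (1.18) were higher in Rab44-KO, also in normal lungs (1.74 and 0.92), while Bst2 was at -0.77. Alveolar type 2 cell markers had a median of -0.51, with 1 of 5, Sftpc, over 2-fold lower (-1.01, or -0.49 with the length trend subtracted), Sftpb at -0.19 and Abca3 at 0.19, and endothelial markers a median of 0.12, with Cdh5 at 0.69, Pecam1 at 0.12 and Cldn5 at -0.10.

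**Figure D5:**
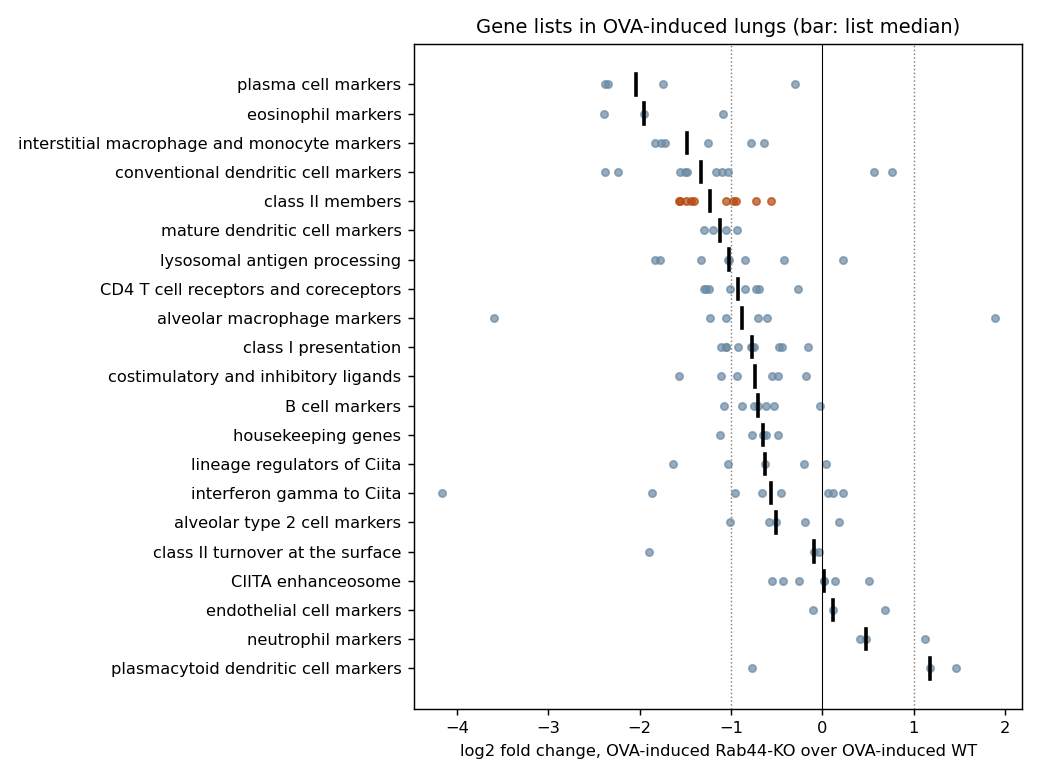
Log2 fold change of OVA-induced Rab44-KO over OVA-induced WT lung for the genes of each list that reach 10 counts in either library; black bars are list medians and dotted lines mark 2-fold. Before any adjustment for gene length, class II genes (red-brown, median -1.23) lie between conventional dendritic cell markers (-1.32) and mature dendritic cell markers (-1.12). With the length trend subtracted, which is not drawn, class II genes (-0.97) lie between interstitial macrophage and monocyte markers (-1.05) and lysosomal genes (-0.83).

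The genes whose profile over the 4 libraries lay nearest to the mean profile of H2-Aa, H2-Ab1, H2-Eb1 and Cd74 came from several cell types. Of 13895 genes reaching 100 counts in some library, ranked by the Euclidean distance of centred log2 CPM, the nearest were Muc5b (0.03), a gel-forming airway mucin, and Clec10a (0.03), a lectin of dendritic cells and macrophages. Aldoc, Olr1, Inpp5j, H2-Oa, Cks1b, Gm42031, Slamf7 and Hpgds completed the 10 nearest, with distances of 0.10 to 0.16. H2-Oa, ranked 6, was the only other class II gene among them. H2-DMb1 ranked 104, H2-DMa 136, H2-Ob 456, Ciita 877 and H2-DMb2 1468. A profile of 4 libraries is short, so near profiles describe these libraries alone.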

How the data were processed

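Total RNA of whole lung was made into libraries with a directional kit and sequenced as 150-base reads. Per the labels, the submitters' processing notes name HISAT2, featureCounts, DESeq2 and the GRCm38 build. The authors deposited a table of raw read counts per gene and a table of TPM made from the same counts, divided by gene length and library depth. The strand setting of the counting is not given in the sources used here.

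Counts were scaled with TMM factors in edgeR 4.0.16 (R 4.3.3). Log2 fold changes used a prior count of 0.125, over genes reaching 10 counts in either library compared. With 1 library per condition, comparisons of a pair of conditions had no test and no p-value. A fit of genotype and OVA together over the 4 libraries, which would take their interaction as error, was not run. A gene was counted past a fold of 2 or 1.5 only as a description. Intervals (95%) are exact Clopper-Pearson intervals of count ratios, Poisson intervals of levels, and normal intervals from Poisson variances for differences of log2 values and of ratios. They cover counting error alone, and reads without molecular identifiers are not independent molecules. In Poisson counts simulated from these libraries, all 200 abundant genes set to a 4-fold change passed 2-fold in each comparison. The simulation held no variation between mice, so it checked the calculation and not the fold calls. Gene length was taken from counts over TPM, scaled to GENCODE M21 exons. Positions are from GENCODE M21, since 2.12% of 39405 gene starts in the deposited table equalled those of RefSeq in GRCm38.p6 and the build of that table's coordinates was not settled.

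Named were every class II gene, and of the other lists genes past 2-fold in a genotype comparison with at least 100 counts, or otherwise the most abundant. Others of those lists were named after their values were seen. The 10 genes and all lists were chosen with earlier results of these data known.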

Additional observations from a re-analysis of the deposited data

How the results depend on the processing

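Scaling by DESeq2 1.42.0 size factors, total counts, upper quartiles, TMM on the compared pair or TMM leaving out immunoglobulin genes, a prior count of 2, TPM with 0.1 added, thinning to the smallest library, minimums of 1 and 50 counts, and subtraction of the length trend were tried. Under these, the median log2FC of the 10 class II genes ran from -1.24 to -0.90 for Rab44-KO over WT in OVA-induced lungs, from 1.07 to 1.28 for the WT response to OVA, from -0.09 to 0.04 for the Rab44-KO response, and from -0.03 to 0.01 between normal lungs. Every class II gene kept its direction between the OVA-induced lungs, the smallest difference being -0.23 for Ciita and -0.40 for H2-Ob by TPM. Of the 10, 4 to 6 were over 2-fold lower there, and 9 over 1.5-fold lower except 8 by TPM. In the WT response, 6 or 7 were over 2-fold higher, and all 10 over 1.5-fold higher except 9 by TPM, where Ciita was at 0.45. Between the OVA-induced lungs, TPM moved the median of all genes from -0.02 to 0.29, and the class II median relative to it was -1.19, against -1.21 with TMM. All genes over 2-fold different split into 1617 higher and 1413 lower with TMM, and into 2602 higher and 777 lower by TPM. TPM also moved that median to -0.17 for the WT response, whose split went from 1710 higher and 989 lower to 1273 and 1102, and to 0.11 for the Rab44-KO response, whose genes over 2-fold different split into 1229 higher and 734 lower with TMM and 1287 and 481 by TPM. Ratios by counts and by TPM differ by a factor of length that is the same in every library. Windows of 200 and 1000 genes for the length trend were added after seeing the data and gave medians of -0.98 and -0.97, and GENCODE exon lengths, added likewise, gave -0.93. Counts over 2-fold lower between the OVA-induced lungs fell by TPM in most other lists: from 4 to 0 for CD4 T cell genes, 3 to 0 for mature dendritic cell markers and for class I genes, 1 to 0 for B cell, alveolar type 2 and housekeeping genes, 3 to 1 for alveolar macrophages, 2 to 1 for lineage regulators and for ligands, 8 to 5 for conventional dendritic cells, 5 to 3 for lysosomal genes, 4 to 3 for interstitial macrophages and 3 to 2 for eosinophils. No paired analysis was possible because each condition had 1 library.

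With 1 library per condition, a difference between mice, dissections or libraries and one between conditions cannot be told apart, which limits every comparison above. H2-Oa, with 97 to 263 counts, had the least precise values. Reads that H2-Oa and H2-DMa share with overlapping genes, and that H2-DMb1 and H2-DMb2 share with each other, were not separated here. Gene length and housekeeping genes moved with the OVA-induced genotype comparison, and so did markers of dendritic cells and macrophages.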
